A study of Mus musculus with 12 samples.

Results

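Oncofetal genes are genes that the fetal liver transcribes, that the adult liver keeps low or off, and that liver tumours often switch on again. The set described here holds 10 of them, found by gene symbol among the 53599 genes of a bulk RNA-seq count table: Afp, H19, Igf2, Dlk1, Gpc3, Igf2bp1, Igf2bp2, Igf2bp3, Lin28b and Peg3. Of the 10 genes, 9 had at least 1 read in some library and 6 (Afp, H19, Gpc3, Igf2bp2, Igf2bp3 and Peg3) passed the filter on low counts that left 16210 genes for testing. The series asks how transcription changes as hepatocytes convert toward biliary cells in the injured adult mouse liver, and these genes were read for whether a fetal pattern of expression appears on the way.

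All mice carried the genotype label WT, received AAV8-TBG-Cre, a viral vector in which the hepatocyte promoter TBG drives Cre recombinase, and were fed a diet with 0.1% of the bile duct toxin DDC for 8 weeks. Sorted liver cells gave 4 groups of 3 libraries. Cells that were EGFP+ Cd24- Epcam- form the early group, EGFP+ Cd24+ Epcam- cells the intermediate group, EGFP+ Cd24+ Epcam+ cells the full group, and EGFP- Epcam+ cells the biliary epithelial cells (BEC). EGFP is read here as the mark of descent from hepatocytes that expressed Cre, although the reporter allele and the age of the mice are not given in the sources used here. BEC lack that mark, so they are read as cells of another origin and not as a stage after full. BEC against full is called the last step below only for order. Both surface proteins define the gates, so their own transcripts are no finding. No fetal liver library was among the 12, and all groups carried the vector and the diet. The labels do not say whether the 3 replicates of a group are separate animals, so p-values measure the spread between these libraries, which may be technical.

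TMM factors ran from 0.652 to 0.672 in early and from 1.03 to 1.22 in the other libraries. Libraries held between 15112893 and 19731887 counts. Levels are given as CPM, counts scaled by library size and TMM factor, and the floor of 3 counts corresponds to between 0.128 and 0.273 CPM. The summed level of 7 hepatocyte markers ran from 93900 to 98300 CPM in early, 14400 to 18900 in intermediate, 3160 to 4150 in full and 1960 to 2580 in BEC, and that of 7 biliary markers from 951 to 1910, 9180 to 12100, 11500 to 14700 and 13700 to 17100, in the same order. Cd24a, a sort marker, averaged 3.20, 444, 1070 and 1070 CPM and Epcam, the other one, 0.592, 18.8, 254 and 866. Among erythroid markers, the globin genes Hbb-bs, Hbb-bt, Hba-a1 and Hba-a2 and the anion exchanger gene Slc4a1 had at most 3 reads in any library. Alas2, the erythroid enzyme of haem synthesis, had 234, 236 and 407 reads in early, 31, 45 and 53 in intermediate, 5, 16 and 18 in full and 8, 18 and 27 in BEC. In bulk RNA, fewer cells that express a gene and less RNA per cell cannot be told apart.

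The genes fall into several parts of fetal growth control. Afp encodes alpha-fetoprotein, the main plasma protein of the fetus, and belongs to the albumin gene family. H19 is a long noncoding RNA transcribed from the maternal allele beside Igf2, a paternally expressed fetal growth factor. Dlk1 is a membrane protein of hepatoblasts, Gpc3 a heparan sulfate proteoglycan at the cell surface, and Peg3 an imprinted zinc finger gene expressed from the paternal allele. Igf2bp1, Igf2bp2 and Igf2bp3 encode RNA-binding proteins that bind Igf2 and many other mRNAs, and Lin28b encodes a protein that blocks maturation of the let-7 microRNAs, which in turn repress Igf2bp genes, Hmga2 and other fetal mRNAs. After birth, the homeobox protein Zhx2 and the zinc finger proteins Zbtb20 and Zfhx3 are known repressors of Afp, and Zhx2 also of H19 and Gpc3.

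The promoters of 3 members are shown because they differ in kind, from one with a match to the TATA box to CpG-rich ones. The RefSeq promoter table (GRCm38.p6) held entries for 8 of the 10 members. The 250 bases before the annotated start are printed 5′ to 3′ on the gene's strand for Afp (chr5:90490464-90490713, plus strand), Igf2bp2 (chr16:22163300-22163549, minus strand) and Gpc3 (chrX:52613975-52614224, minus strand), with capitals at matches on either strand to 6 motifs. The motifs are the TATA box searched as TATAAA, the half-site of the hepatocyte factor HNF1 searched as GTTAAT and also, palindromic and counted once, as GTTAAC, the AP-1 motif TGANTCA, the TEAD motif GGAATG and the GC box, GGGCGG.
Afp: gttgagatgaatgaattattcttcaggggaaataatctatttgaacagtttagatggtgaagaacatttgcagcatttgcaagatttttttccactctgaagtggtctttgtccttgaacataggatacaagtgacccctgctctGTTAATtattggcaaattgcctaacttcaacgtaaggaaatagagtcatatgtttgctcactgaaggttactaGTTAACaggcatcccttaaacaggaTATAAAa
Igf2bp2: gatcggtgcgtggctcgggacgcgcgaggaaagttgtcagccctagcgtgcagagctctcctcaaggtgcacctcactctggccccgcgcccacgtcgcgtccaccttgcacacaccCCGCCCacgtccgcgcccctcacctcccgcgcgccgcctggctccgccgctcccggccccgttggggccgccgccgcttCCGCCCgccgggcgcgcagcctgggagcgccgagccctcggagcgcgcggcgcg
Gpc3: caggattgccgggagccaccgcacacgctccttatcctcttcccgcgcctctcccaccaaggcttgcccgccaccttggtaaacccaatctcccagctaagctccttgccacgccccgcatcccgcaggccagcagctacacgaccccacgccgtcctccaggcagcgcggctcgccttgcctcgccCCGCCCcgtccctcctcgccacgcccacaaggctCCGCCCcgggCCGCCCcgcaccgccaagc
Afp has 36.0% G and C with 1 CpG, a match to TATAAA whose first base lies 7 bases before the annotated start, and both forms of the HNF1 half-site. Whether the annotated start is the one used in these cells was not tested. Igf2bp2 has 77.2% G and C with 40 CpG and 2 GC boxes, and Gpc3 71.6% with 25 CpG and 3 GC boxes. Among the 32851 promoters of the table, the same 250 bases hold the TATA box in 12.4%, the HNF1 half-sites in 6.43% for the first form and 2.56% for the palindrome, the AP-1 motif in 6.75%, the TEAD motif in 12.6% and the GC box in 32.7%. The AP-1 and TEAD motifs were not found in these 3 windows. A match is a run of letters, not a measured site.

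The members did not share a single course. All 6 tested members differed among the 4 groups (edgeR's quasi-likelihood F test, adjusted p from 1.66e-09 for H19 to 0.0344 for Gpc3), where 75.6% of all genes tested did. The Gpc3 call among them was lost without intermediate replicate 1 or 3, full replicate 1 or 2, or BEC replicate 2 or 3 (edgeR adjusted p from 0.0508 to 0.123). Afp and H19 fell from the first step. Igf2bp2 and Peg3 rose at the first step, were not called between intermediate and full, and were lower in BEC than in full. Igf2bp3 was lower in BEC than in each other group. Igf2, Dlk1, Igf2bp1 and Lin28b stayed at or near 0 reads. Directions are relative to the TMM scale. Without TMM factors, the typical gene shifted upward, with a median of 0.72 rather than 0.06 on the log2 scale for intermediate against early, and of 1.0 rather than 0.14 for full against early.

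**Figure D1:**
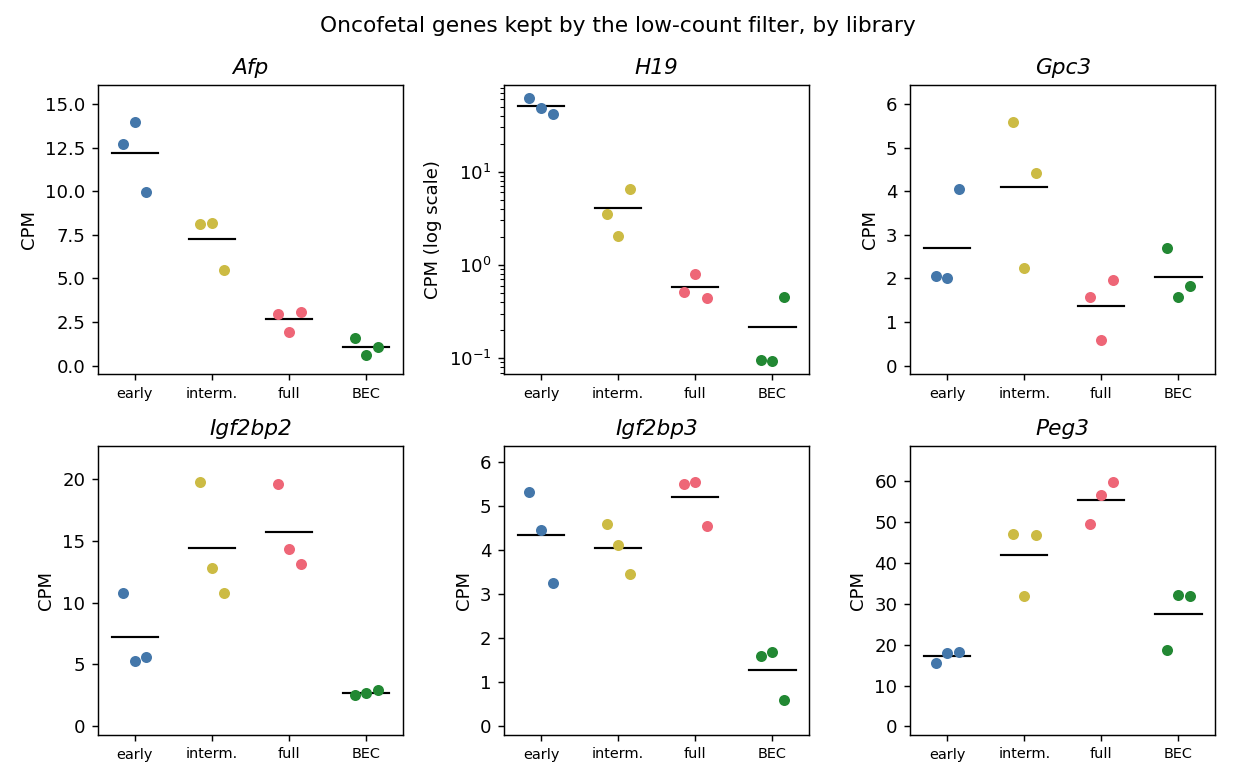
CPM of the 6 tested members in each library (1 point each) by group, with a black line at the group mean; the H19 axis is logarithmic and the others include 0. Afp and H19 step down from early to BEC, while Igf2bp2 and Peg3 are higher in intermediate and full (group means 14.4 and 15.7 CPM, and 41.9 and 55.3 CPM) than in early (7.21 and 17.2 CPM) or BEC (2.71 and 27.5 CPM).

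H19 showed the largest change of the set. Its level was 61.7, 48.4 and 41.9 CPM in the early libraries, 3.52, 2.03 and 6.57 in intermediate, 0.511, 0.803 and 0.437 in full, and 0.0963, 0.0932 and 0.457 in BEC. No early library overlapped any other group, and 2 of the 3 BEC libraries held 2 reads each, under the floor. H19 fell 12.5-fold from early to intermediate (-3.65 on the log2 scale with an SE of 0.35, edgeR adjusted p 1.15e-06; values in later brackets are log2 fold changes) and a further 6.87-fold to full (-2.78, SE 0.46, edgeR adjusted p 0.00027). Between BEC and full the libraries overlapped and no call was made (-1.39, SE 0.72, edgeR adjusted p 0.217). With no filter on low counts H19 was called lower in BEC (-1.42, edgeR adjusted p 0.0301). Without BEC replicate 3, which held 10 reads, the value was -2.54 against full (edgeR adjusted p 0.0764) and -8.96 rather than -7.82 against early (edgeR adjusted p 2.41e-08). Per kilobase of exon in the GENCODE M21 gene models, the H19 level in early, 20.6 ± 4.10 CPM per kilobase, was above the Afp level of 3.63 ± 0.614 (SD, n = 3), and in BEC it was 0.0876 ± 0.0850 against 0.326 ± 0.146 for Afp. Over the 12 libraries, the genes whose log2 CPM was most like H19 were Acsm5 (r = 0.989), a mitochondrial acyl-CoA synthetase, and Nqo1 (r = 0.988), a quinone reductase.

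Afp followed the same direction in smaller steps. Early libraries had 12.7, 14.0 and 9.95 CPM, intermediate 8.11, 8.16 and 5.49, full 2.94, 1.96 and 3.06, and BEC 1.59, 0.606 and 1.10. The 4 groups did not overlap in this order. Afp fell 1.68-fold at the first step (-0.75, SE 0.27, edgeR adjusted p 0.0321) and 2.73-fold at the second (-1.45, SE 0.29, edgeR adjusted p 0.00115). It was 2.42-fold lower in BEC than in full (-1.27, SE 0.32, edgeR adjusted p 0.0116). The call at the first step failed under total counts (-0.08, edgeR adjusted p 0.808) and without early replicate 1 (-0.72, edgeR adjusted p 0.069), early replicate 2 (-0.65, edgeR adjusted p 0.102) or intermediate replicate 3 (-0.58, edgeR adjusted p 0.118). Leaving out BEC replicate 2 took the last step past the threshold (-0.98, edgeR adjusted p 0.0524). Rab4a (r = 0.987), a small GTPase of endosomes, and Cd59a (r = 0.984), an inhibitor of complement, were most like Afp over the 12 libraries.

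The neighbours of Afp in the albumin gene family, Alb, Afm and Gc, which encode carrier proteins of plasma, were each called lower at all 3 steps. From early to BEC their log2 fold changes were -5.47, -5.59 and -3.27, beside -3.47 for Afp. For the last step only 1 of the 3 stayed called without full replicate 3 or BEC replicate 2. All 15 adult hepatocyte genes tested were called lower at the first step, with a median of -2.60 on the log2 scale, and at the second, with -2.63, and 6 were between full and BEC, where 25.7%, 19.8% and 10.6% of all genes were called lower. Among them, Cyp7a1, the rate-limiting enzyme of bile acid synthesis, fell by 3.90 on the log2 scale at the first step (edgeR adjusted p 2.08e-06). Apoa1, an apolipoprotein, fell by 4.07 at the second (edgeR adjusted p 1.96e-07). Tat, a tyrosine aminotransferase, was lower by 2.61 in BEC than in full (edgeR adjusted p 3.88e-05). Afp was lower at the same steps as these neighbours, but by less at the first (-0.75, beside -2.54 for Alb, -2.59 for Afm and -1.27 for Gc). Its own call at that step was lost under several settings, as given above. No other group exceeded early for Afp.

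Gpc3 had no steady course. Its level was 2.06, 2.0 and 4.05 CPM in early, 5.60, 2.25 and 4.42 in intermediate, 1.57, 0.580 and 1.97 in full, and 2.7, 1.58 and 1.83 in BEC. Early, intermediate and BEC overlapped, and the full libraries lay below those of early and of intermediate but overlapped BEC. Gpc3 was called lower in full than in intermediate (2.95-fold, log2 fold change -1.56, SE 0.46, edgeR adjusted p 0.0142), which failed the threshold on leaving out intermediate replicate 1 (-1.27, edgeR adjusted p 0.0581) or full replicate 2 (-1.20, edgeR adjusted p 0.0567). It was not called between intermediate and early (0.59, SE 0.45, edgeR adjusted p 0.293), but was higher in intermediate with total counts only (1.25, edgeR adjusted p 0.0254). With the replicate block it was called lower in full than in early (-1.02, edgeR adjusted p 0.0194, against 0.0806 without it) and in BEC than in intermediate (-0.95, edgeR adjusted p 0.0244, against 0.0748). The first of these was also called with no filter on low counts and without full replicate 3 (edgeR adjusted p 0.0422 and 0.0446). The second was also called with no filter, with only the 6 libraries compared, and without intermediate replicate 2 or full replicate 2 (edgeR adjusted p 0.0192, 0.0449, 0.0315 and 0.0466). The genes most like it were Rps15a (r = 0.844), a ribosomal protein gene, and Glrx (r = 0.842), a glutaredoxin.

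Igf2bp2 rose at the first step. Early libraries had 10.8, 5.27 and 5.58 CPM, intermediate 19.7, 12.8 and 10.8, full 19.6, 14.3 and 13.1, and BEC 2.55, 2.66 and 2.92. Early replicate 1 reached the lowest intermediate library, the full libraries lay above every early one, and BEC lay below all others. The level rose 1.99-fold from early to intermediate (0.99, SE 0.29, edgeR adjusted p 0.00943) and from intermediate to full the difference was within the spread of the libraries (0.12, SE 0.27, edgeR adjusted p 0.754). It was 5.76-fold lower in BEC than in full (-2.53, SE 0.30, edgeR adjusted p 3.55e-05) and 2.66-fold lower in BEC than in early (-1.41, SE 0.31, edgeR adjusted p 0.000981). The rise at the first step missed the threshold without intermediate replicate 1 (0.71, edgeR adjusted p 0.0505), and BEC against early was not called under total counts (-0.54, edgeR adjusted p 0.117). Crym (r = 0.961), a thyroid hormone binding protein, and Mtmr11 (r = 0.961) were most like it.

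Igf2bp3 did not share that rise. It had 5.30, 4.46 and 3.24 CPM in early, 4.59, 4.11 and 3.45 in intermediate, 5.49, 5.53 and 4.55 in full, and 1.59, 1.68 and 0.594 in BEC. The 3 hepatocyte-derived groups overlapped and BEC lay below each of them. Intermediate against early gave -0.10 (SE 0.31, edgeR adjusted p 0.815), which changed sign with total counts only (0.57, edgeR adjusted p 0.119), and full against early gave 0.26 (SE 0.30, edgeR adjusted p 0.46), which was called with total counts only (1.13, edgeR adjusted p 0.00389). Igf2bp3 was 4.03-fold lower in BEC than in full (-2.01, SE 0.32, edgeR adjusted p 0.000479) and 3.36-fold lower than in early (-1.75, SE 0.34, edgeR adjusted p 0.000327). Cdh2 (r = 0.933), the N-cadherin of hepatocyte junctions, and Masp1 (r = 0.927), a complement protease, were most like it. The Igf2bp3 gene model overlaps exons of Malsu1 on the other strand, which had 201 to 317 counts per library, and the strand setting of the counting is not given in the sources used here.

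Among the 6 members kept by the filter, Peg3 had the largest rise. It had 15.5, 17.9 and 18.1 CPM in early, 47.0, 32.0 and 46.7 in intermediate, 49.4, 56.7 and 59.7 in full, and 18.6, 32.2 and 31.8 in BEC. Full libraries lay above all others, early ones below all others, and BEC overlapped intermediate. Peg3 rose 2.44-fold from early to intermediate (1.29, SE 0.20, edgeR adjusted p 0.000116) and was 3.22-fold higher in full than in early (1.69, SE 0.20, edgeR adjusted p 4.91e-06). Full against intermediate was not called (0.40, SE 0.19, edgeR adjusted p 0.114), but was with total counts only (0.60, edgeR adjusted p 0.0217), with no filter on low counts (0.41, edgeR adjusted p 0.03) and when BEC replicate 1 was left out (0.40, edgeR adjusted p 0.0358). BEC was 2.0-fold below full (-1.0, SE 0.19, edgeR adjusted p 0.0018) and 1.60-fold above early (0.68, SE 0.20, edgeR adjusted p 0.00798). Usp29, whose start lies beside that of Peg3, had 0 reads in every early and intermediate library, 13, 10 and 3 in full, and 1, 1 and 0 in BEC. Fhod3 (r = 0.953), a formin, and Zfp57 (r = 0.953), a KRAB zinc finger gene, were most like Peg3, with Zfp57 averaging 0.732 CPM in early and then 20.8, 33.4 and 3.63 CPM.

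**Figure D2:**
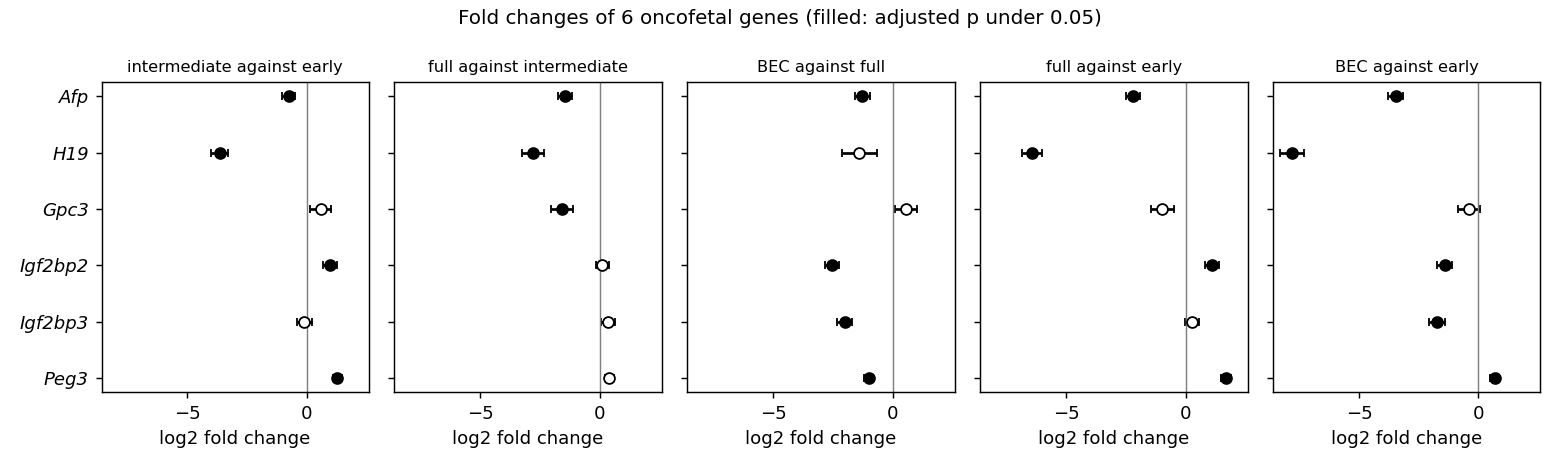
Log2 fold changes of the 6 tested members in 5 comparisons, with bars of 1 SE from edgeR's fit; filled points have an adjusted p under 0.05 and open points do not. H19 reaches -7.82 between BEC and early, and Igf2bp2, Igf2bp3 and Peg3 lie at -2.53, -2.01 and -1.0 between BEC and full.

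The 4 members below the filter gave few reads. Igf2 had 1 read in intermediate replicate 2, 2 in BEC replicate 2 and 0 in the other 10 libraries, so its level was under the floor in all 12. Lin28b had 0 reads in all 12 libraries, which allows up to 0.128 to 0.273 CPM depending on the library. Dlk1 had 4, 7 and 1 reads in early, 3, 0 and 0 in intermediate, 1, 0 and 0 in full, and 0, 1 and 0 in BEC. Only early replicates 1 and 2 lay above the floor for Dlk1. Igf2bp1 had 0 reads in every early and intermediate library, 10, 1 and 6 in full, and 0, 1 and 0 in BEC. Full replicates 1 and 3 were thus the only libraries above the floor for Igf2bp1. With no filter on low counts, Igf2bp1 was called higher in full than in early (edgeR adjusted p 0.0422) and than in intermediate (edgeR adjusted p 0.0421), but not between BEC and full (edgeR adjusted p 0.174), and Dlk1 was called lower in full and in BEC than in early (edgeR adjusted p 0.0396 and 0.0423). Intervals and floors cover counting error only.

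**Figure D3:**
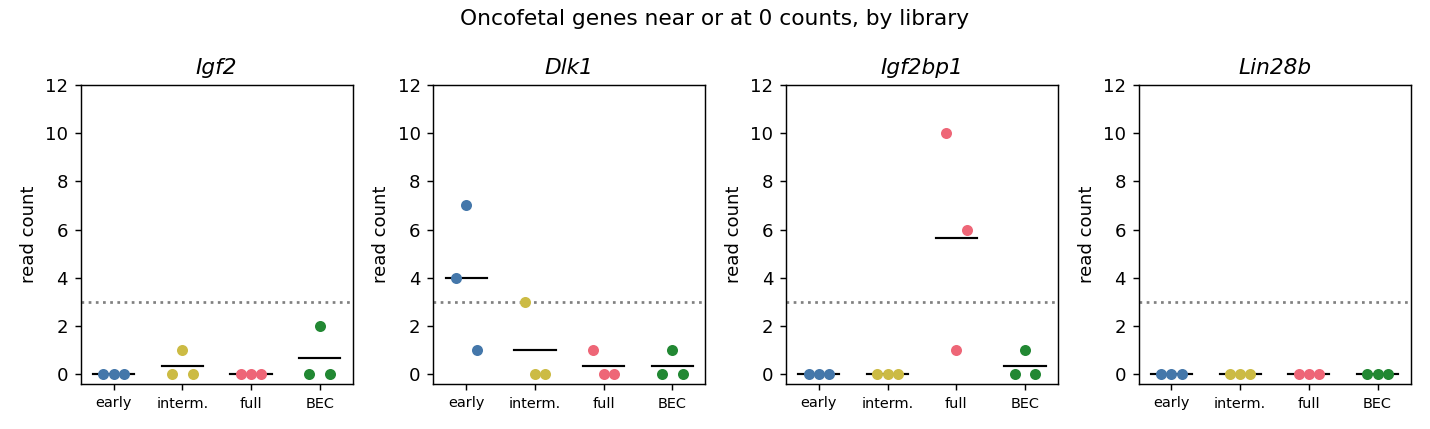
Read counts of Igf2, Dlk1, Igf2bp1 and Lin28b in each library by group, with a black line at the group mean and a dotted line at the floor of 3 counts. Dlk1 exceeds the floor in 2 early libraries and Igf2bp1 in 2 full libraries, with 10 reads at most.

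By comparison, 4 of the 6 tested members were called between intermediate and early, 2 higher and 2 lower, where 54.4% of all genes were called (28.7% higher and 25.7% lower). Full against intermediate called 3, all lower, against 40.7% of all genes (20.8% higher and 19.8% lower), and BEC against full called 4, all lower, against 21.3% (10.7% higher and 10.6% lower). Full against early called 2 higher and 2 lower, against 71.2% (39.1% higher and 32.1% lower). BEC against early called 1 higher (Peg3) and 4 lower, against 73.1% (40% higher and 33% lower), and BEC against intermediate called 5, all lower, against 52.4% (26.3% higher and 26.2% lower). Their median log2 fold change was 0.24, -0.67 and -1.33 at the 3 steps, beside 0.06, 0.01 and 0.00 for all genes tested.

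A passing fetal state would put a gene higher in intermediate or in full than on both sides. Only the rule of intermediate above both early and full lies within the hepatocyte-derived groups. Rules that use BEC compare with cells of another origin, so meeting them does not show a return within the hepatocyte-derived cells. No member was called higher in intermediate than in both early and full, as 0.716% of all genes were, and none was called higher in full than in both intermediate and BEC, as 1.84% were. Neither 0 held under every setting. Gpc3 met the first rule with total counts only, and Peg3 met the second with total counts only, with no filter on low counts and without BEC replicate 1 (edgeR adjusted p for full against intermediate 0.0217, 0.03 and 0.0358). Igf2bp2 and Peg3 were called higher in full than in both early and BEC, where 4.12% of all genes were, and also higher in intermediate than in both early and BEC, where 3.39% were. Both calls in full stayed without each library in turn. In intermediate the Peg3 call rested on BEC against intermediate (-0.60, SE 0.19, edgeR adjusted p 0.018), which failed under total counts (-0.40, edgeR adjusted p 0.101) and on leaving out intermediate replicate 1 (-0.52, edgeR adjusted p 0.0614), intermediate replicate 3 (-0.52, edgeR adjusted p 0.0678) or BEC replicate 1 (-0.39, edgeR adjusted p 0.0589). Without intermediate replicate 1 no member remained in the intermediate count, since Igf2bp2 missed the threshold there as well.

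The same rule was applied to 87 tested genes of 7 lists (imprinted genes, regulators of Afp, the LIN28 and let-7 pathway, the IGF axis, other hepatoblast genes, the albumin family and adult hepatocyte genes). Only Igfbp6, an IGF-binding protein, was called higher in intermediate than in both early and full (1.15% of the 87, against 0.716% of all genes), and only Grb10 and Hmga2 were higher in full than in both intermediate and BEC (2.30% against 1.84%). In intermediate, 6 were called higher than in both early and BEC (6.9% of the 87, against 3.39% of all genes), namely Cdkn1c, Zhx2, Trim71, Igfbp6, Plag1 and Igdcc4. The Cdkn1c call against BEC was lost without intermediate replicate 1 or 2 or BEC replicate 1 or 2 (edgeR adjusted p 0.0614, 0.0603, 0.0525 and 0.0536), that of Zhx2 without intermediate replicate 3 or BEC replicate 1 (edgeR adjusted p 0.0794 and 0.0615), and both with total counts only. In full, 8 were called higher than in both early and BEC (9.2% of the 87, against 4.12% of all genes): Trim71, Hmga2, Plag1, Igdcc4, Grb10, Cdkn1c, Sgce and Zhx2. Trim71 and Plag1 passed the filter on low counts only through groups where they were high, so the filter favours their meeting the rule. The shares are given without a test, and no excess is read from them. The genes are named because they met the rule, after their values were seen. No gene of the albumin family or adult hepatocyte lists was among them. The last of these counts was between 6 and 9 when each library was left out, 11 with total counts only or with no filter on low counts, and 5 with a minimum mean of 50 counts, where fewer genes are tested.

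In the LIN28 and let-7 pathway, Lin28a had 1 read in all libraries together, and the let-7 targets among the list differed in course. Trim71, a fetal RNA-binding ubiquitin ligase repressed by let-7, had 0 reads in every early library, 27, 32 and 29 in intermediate, 28, 30 and 29 in full, and 0, 4 and 1 in BEC. It was thus at least 6.77-fold higher in intermediate and 5.06-fold higher in full than the mean early floor of 0.251 CPM, and was lower in BEC than in full (-3.91, SE 0.61, edgeR adjusted p 0.000676), with -5.39 when BEC replicate 2, which held 4 reads, was left out (edgeR adjusted p 0.000639). Hmga2, a chromatin protein of fetal growth and a let-7 target, had 0.316, 0 and 0 CPM in early, 1.95, 1.15 and 0.340 in intermediate, 5.23, 7.49 and 5.77 in full and 0.578, 0.326 and 0.731 in BEC. The full libraries stood above all others (full against intermediate and BEC against full both called, the latter -3.48, SE 0.56, edgeR adjusted p 0.000441). Ccnd2, a G1 cyclin, rose at both steps (3.81 and 3.03 on the log2 scale, edgeR adjusted p 6.08e-07 and 5.06e-07), with BEC at 220 ± 41.3 CPM (SD, n = 3). Hmga1 was lower in BEC than in full (-1.35, SE 0.30, edgeR adjusted p 0.00524). Of 17 genes tested in the list, 8 were called higher and 2 lower at the first step, 3 and 2 at the second, and 0 and 4 between BEC and full, with medians of 0.21, 0.05 and 0.01. Among all genes, 28.7% were called higher and 25.7% lower at the first step, 20.8% and 19.8% at the second, and 10.7% and 10.6% between BEC and full. The 2 lower at the second step became 1 with DESeq2, with median-of-ratios factors, with either other filter and on leaving out intermediate replicate 1 or 3, any full library or BEC replicate 2, and 0 with total counts only. The 4 lower between BEC and full became 2 with a minimum mean of 50 counts. The 0 higher between BEC and full became 1 with no filter, with only the 6 libraries compared, with the replicate number as a block and without intermediate replicate 1, intermediate replicate 3 or BEC replicate 1. With the block, Ccnd2 was called higher in BEC than in full (0.58, edgeR adjusted p 0.0473). With total counts only, 15 were called higher and 0 lower at the first step.

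Among the other hepatoblast genes, Igdcc4, a surface protein of fetal liver cells, had 26.2, 14.5 and 16.5 CPM in early, 77.6, 74.8 and 62.4 in intermediate, 72.4, 77.0 and 78.9 in full and 25.3, 28.1 and 22.5 in BEC. Intermediate and full stood above early and BEC without overlap (intermediate against early 1.91, SE 0.18, edgeR adjusted p 9.29e-07, BEC against full -1.59, SE 0.17, edgeR adjusted p 1.64e-05). Plag1, a zinc finger oncogene of fetal tissues, had 6 reads in early, 79 in intermediate, 126 in full and 2 in BEC, summed over each group's 3 libraries, and was called at the first step (3.14, SE 0.60, edgeR adjusted p 0.000528) and between BEC and full (edgeR adjusted p 4.04e-05). Other hepatoblast genes moved the opposite way. Spink1, a trypsin inhibitor, fell from 18.4, 14.3 and 20.7 CPM in intermediate to 0.893, 0.401 and 1.71 in full, and Lpl, the lipoprotein lipase of neonatal liver, from 366 ± 114 in early to 70.2 ± 11.1 in intermediate (SD, n = 3). Cyp3a16 had 0 reads in every library and Sall4 8 reads in all, and both were below the filter. Of 13 genes tested, 7 were called higher and 3 lower at the first step, 4 and 4 at the second, and 2 and 4 between BEC and full, with medians of 0.57, 0.11 and -0.20. The shares of all genes called higher and lower were 28.7% and 25.7%, 20.8% and 19.8%, and 10.7% and 10.6%, in that order. The 2 called higher in BEC became 1 when any full library or BEC replicate 1 was left out.

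**Figure D4:**
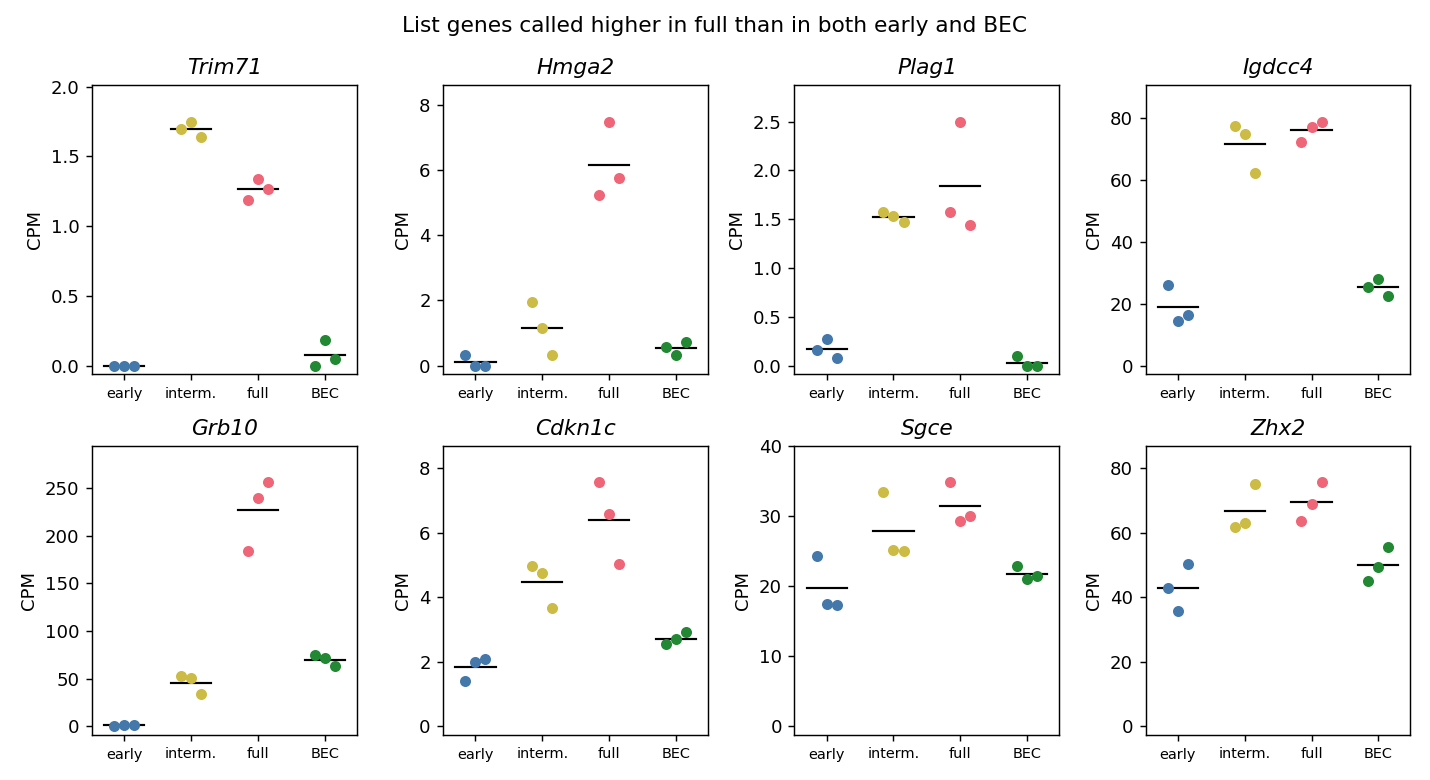
CPM of the 8 list genes called higher in full than in both early and BEC, 1 point per library with a black line at the group mean, on axes that include 0. Trim71, Plag1 and Igdcc4 average 1.70, 1.53 and 71.6 CPM in intermediate, while Hmga2 and Grb10 are highest in full at 6.17 and 227 CPM.

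Imprinted genes other than H19, Igf2, Dlk1 and Peg3 did not move as one. Of 22 tested, 5 were called higher and 3 lower at the first step, 5 and 3 at the second, and 1 and 6 between BEC and full, with medians of 0.02, 0.01 and -0.31. Among all genes, 28.7% were called higher and 25.7% lower at the first step, 20.8% and 19.8% at the second, and 10.7% and 10.6% between BEC and full. With the replicate block, 6 rather than 3 were lower at the second step, and with total counts only 13 rather than 5 were higher at the first. Grb10, an adaptor that restrains insulin and IGF signalling, had 0.554, 1.36 and 1.38 CPM in early, 53.4, 50.3 and 33.8 in intermediate, 184, 240 and 256 in full and 74.5, 72.2 and 62.9 in BEC. It rose at the first step (5.39, SE 0.28, edgeR adjusted p 4.35e-09) and was lower in BEC than in full (-1.70, SE 0.18, edgeR adjusted p 1.43e-05). Cdkn1c, an inhibitor of cyclin-dependent kinases, averaged 1.84 CPM in early, 4.47 in intermediate, 6.40 in full and 2.73 in BEC (full against early 1.80 and BEC against full -1.23, edgeR adjusted p 1.81e-05 and 0.00131). Sgce, a sarcoglycan, averaged 19.7, 27.9, 31.4 and 21.8 CPM, and its call between BEC and full was not kept without full replicate 1, BEC replicate 2 or BEC replicate 3 (edgeR adjusted p 0.0872, 0.0728 and 0.0597). Plagl1, a zinc finger regulator of imprinted genes, had 3 reads in all early libraries. It averaged 1.89 CPM in intermediate, 12.1 in full and 54.1 in BEC, where it was highest.

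Meg3, the maternally expressed noncoding RNA of the Dlk1 domain, was present where Dlk1 was near 0. It had 33.3, 8.09 and 8.90 CPM in early, 41.0, 6.79 and 16.7 in intermediate, 13.8, 2.63 and 10.1 in full, and 0.434, 0.326 and 0.503 in BEC. Replicate 1 was the highest in each hepatocyte-derived group, and full lay below intermediate in each of the 3 same-numbered pairs. Full against intermediate was not called in the main fit (-1.27, edgeR adjusted p 0.145) and was called lower with the replicate block (-1.18, SE 0.27, edgeR adjusted p 0.00323). BEC stood below all 3 groups (BEC against full -4.38, SE 0.95, edgeR adjusted p 0.00419). Rian, another noncoding RNA of that domain, was also lower in BEC than in full (-4.29, SE 1.13, edgeR adjusted p 0.014), and with the replicate block lower in full than in intermediate (-1.46, SE 0.27, edgeR adjusted p 0.000674, against 0.126 without it). Meg3 and Rian were picked for mention after their values were seen, as the partners of Dlk1.

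Receptors and carriers for IGF2 were measured although Igf2 was under the floor. Igf1r, the receptor that transmits IGF signals, rose from 3.27 ± 1.95 CPM in intermediate to 43.6 ± 12.2 in full, and was at 116 ± 11.5 in BEC (SD, n = 3) (full against intermediate 3.76, SE 0.31, edgeR adjusted p 7.01e-07). Igfbp7, a secreted IGF-binding protein, went from 10.1, 30.8 and 22.1 CPM in early to 500, 386 and 278 in intermediate (4.21, SE 0.33, edgeR adjusted p 1.62e-07). Igfbp1, a hepatocyte IGF-binding protein, was lower in BEC than in full (-3.27, SE 0.89, edgeR adjusted p 0.0169), a difference not called on leaving out full replicate 1 (-2.60, edgeR adjusted p 0.078), BEC replicate 2 (-3.05, edgeR adjusted p 0.0678) or BEC replicate 3 (-3.08, edgeR adjusted p 0.062). Of 14 genes tested, 4 were called higher and 6 lower at the first step, 5 and 5 at the second, and 2 and 4 between BEC and full, with medians of -0.59, -0.05 and -0.42. The shares of all genes called higher and lower were 28.7% and 25.7%, 20.8% and 19.8%, and 10.7% and 10.6%, in that order. With total counts only 7 were higher and 3 lower at the first step, 8 were lower between BEC and full with no filter on low counts, and 3 were higher at the second step without intermediate replicate 2. With the replicate block, Igfbp1 and Igfbp5 were also called lower at the first step (edgeR adjusted p 0.00124 and 0.00226) and Igf2r higher (edgeR adjusted p 0.0467). Igf1 and Igfbp4 were then also called lower in BEC than in full (edgeR adjusted p 0.0122 and 0.0167).

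The known repressors of Afp were measured in the same libraries. Zhx2 had 42.9, 35.8 and 50.3 CPM in early, 61.7, 63.0 and 75.3 in intermediate, 63.7, 69.0 and 75.7 in full, and 45.2, 49.4 and 55.7 in BEC. It rose at the first step (0.63, SE 0.13, edgeR adjusted p 0.00103) and was lower in BEC than in full (-0.47, SE 0.13, edgeR adjusted p 0.0165), which missed the threshold when full replicate 3, BEC replicate 1 or BEC replicate 2 was left out (edgeR adjusted p 0.0778, 0.071 and 0.0586). Zbtb20 rose at the first step (0.56, SE 0.17, edgeR adjusted p 0.013) and the second (0.77, SE 0.17, edgeR adjusted p 0.00236), from 259 ± 52.5 CPM in early to 381 ± 61.5 and 652 ± 120, with 529 ± 31.7 in BEC (SD, n = 3). The first of these calls was lost without early replicate 1 (0.40, edgeR adjusted p 0.0516) or intermediate replicate 3 (0.42, edgeR adjusted p 0.0665). Zfhx3 rose at the first step (0.79, SE 0.15, edgeR adjusted p 0.000655) from 24.5 ± 5.53 to 42.3 ± 1.42 CPM (SD, n = 3) and was not called at the later ones. Of the relatives of Zhx2, Zhx3 fell between intermediate and full (-0.74, SE 0.09, edgeR adjusted p 3.3e-05) and between full and BEC (-1.25, SE 0.10, edgeR adjusted p 8.76e-07), and Zhx1 was not called at the 3 steps in the fit of all 12 libraries. With total counts only, all 5 were called higher at the first step. At the first step Zhx2, Zbtb20 and Zfhx3 were higher while Afp and H19 were lower and Gpc3 was not called. At the last step Zhx2 and Afp were both lower in BEC, and Zbtb20 and Zfhx3 were not called.

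**Figure D5:**
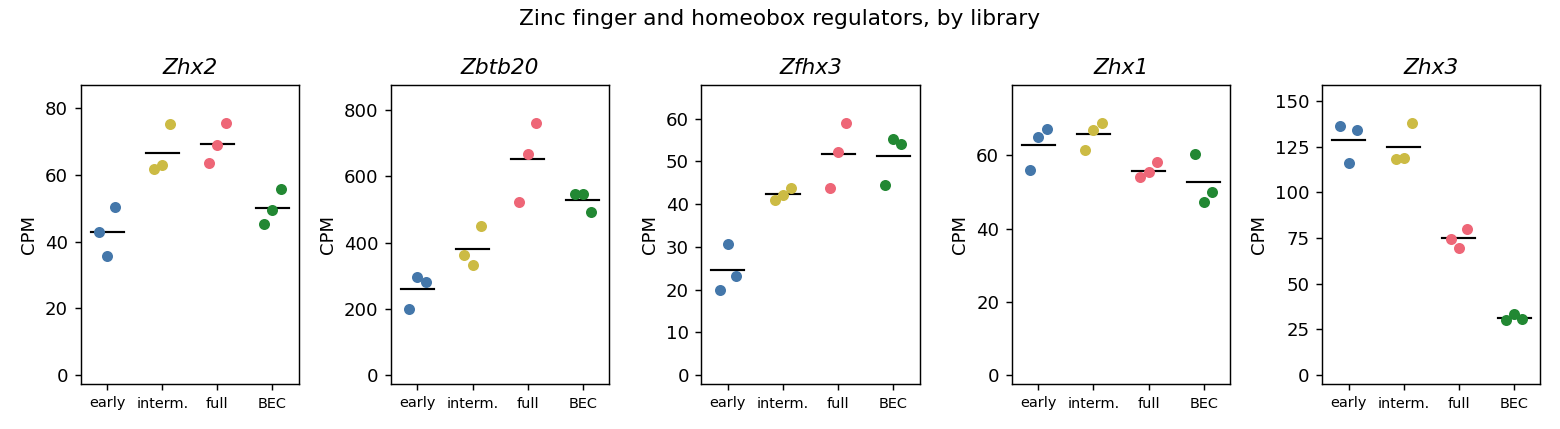
CPM of Zhx2, Zbtb20, Zfhx3, Zhx1 and Zhx3 in each library by group, with a black line at the group mean, on axes that include 0. Zhx2, Zbtb20 and Zfhx3 are higher in intermediate than in early, and Zhx3 is lowest in BEC, at 31.5 CPM on average.

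Markers of other cell types were summed beside these results. The 9 stellate cell and fibroblast markers, which were all detected, summed to between 113 and 329 CPM in early, 65.3 and 193 in intermediate, 49.4 and 85.5 in full and 64.4 and 109 in BEC. The median sum was highest in early (286 CPM, against 108 in intermediate), the group where H19 and Dlk1 were highest. The early and intermediate sums overlapped. The 5 mesothelial markers summed to between 1.82 and 4.45 CPM in early, 2.26 and 3.23 in intermediate, 29.6 and 45.1 in full and 225 and 249 in BEC, and the 7 macrophage markers to between 20.8 and 23.1, 29.0 and 32.5, 64.3 and 84.7, and 131 and 144. Both sums were highest in BEC, where Igf2bp2 and Igf2bp3 were lowest. The 7 endothelial markers summed to between 14.3 and 24.3 CPM in early and 2.84 and 10.8 in BEC. The B cell, T and NK cell and neutrophil sums were at most 0.411, 0.326 and 0.340 CPM. The part of these cell types in the members' changes was not tested.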

How the data were processed

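RNA from 12 libraries of sorted mouse liver cells was sequenced in 4 groups of 3, grouped by sample title. The deposited main table, made by the authors, gives unnormalized counts for each symbol. STAR 2.7.10b, featureCounts 2.0.1, DESeq2 and the build GRCm39 are named in the submitters' processing notes. The annotation and strand setting are not given in the sources used here, so genes with overlapping partners are uncertain. The second deposited table holds signal, the same counts divided by 1 factor per sample, and was not used for tests.

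All 12 libraries entered 1 fit of the counts in edgeR 4.0.16 (R 4.3.3, limma 3.58.1) with TMM factors and filterByExpr, which kept 16210 of 53599 genes. Quasi-likelihood tests were adjusted over all genes kept by Benjamini-Hochberg, with calls at 0.05. Alternatives used DESeq2 1.42.0, other scaling factors, other filters, fits of 6 libraries, a replicate block and each library left out. Genes most alike were the 2 with the highest Pearson r of log2 CPM (prior count 2) among genes with a mean of at least 5 CPM, a description over libraries that share groups. List genes were named where they had the largest called log2 fold change of their list and reached 10 CPM in 1 of the groups compared, and all in lists of up to 5. Exon lengths come from GENCODE M21 (GRCm38). Figures used Python 3.11.15 and matplotlib 3.10.9.

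The members and lists were chosen with earlier results of these data known. Same-numbered libraries deviated together across genes at the 3 steps (r from 0.121 to 0.293, 0.137 to 0.322 and 0.170 to 0.257), so the numbers may pair the libraries, although the labels do not say what they mark. Differently numbered libraries were not compared in this way. The main fit left the numbers out, so its calls take no account of pairing. In full against early, BEC against early and BEC against intermediate the lowest r was 0.096, 0.0442 and 0.0839. Replicates differed beyond counting error (chi-square over its degrees of freedom from 15.2 in full to 53.4 in early). On simulated counts for intermediate against early over 16210 genes, all 200 genes given a log2 change of 2 were called (100%) and 6.54% of 214 calls were false. The simulation gave every group the same mean profile and every gene the same spread, and changed only genes averaging over 50 counts, up and down equally. The real comparison called 54.4% of genes. These rates therefore do not cover weaker genes, smaller changes or the scale shift between early and the other groups.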

Additional observations from a re-analysis of the deposited data

How the results depend on the processing

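Among the counts of members called, 66 of 72 values under other settings and 128 of 132 with a library left out stayed within 1.5 times of the reported count. With no filter on low counts, 5 members were called between full and intermediate and 7 between full and early, and 1 was higher in full than in both intermediate and BEC; Peg3 and Gpc3, gained here, were already tested with the filter, and Igf2bp1 and Dlk1 were not. The cause of the gain for Peg3 and Gpc3 was not tested. With total counts only, 1 member was higher in intermediate than in both early and full, 1 higher in full than in both intermediate and BEC, and 1 higher in intermediate than in both early and BEC; the cause was not tested. With a library left out, the count higher in full than in both intermediate and BEC ranged from 0 to 1 and the count higher in intermediate than in both early and BEC from 0 to 2.

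Among the members and the repressors of Afp, these signs changed. With total counts only, intermediate against early was 0.57 for Igf2bp3 and 0.62 for Zhx3, full against early 0.70 for Zhx1 and 0.08 for Zhx3, and BEC against early 0.45 for Gpc3 and 0.61 for Zhx1. Zfhx3 in BEC against full was 0.0040 with DESeq2, 0.0041 with median-of-ratios factors and 0.005 with a mean of at least 50 counts. With 1 library left out, ranges crossed 0 for Igf2bp3 (-0.27 to 0.08) and Zhx1 (-0.0035 to 0.13) in intermediate against early, Igf2bp2 (-0.07 to 0.41) and Zhx2 (-0.01 to 0.15) in full against intermediate, Zfhx3 (-0.12 to 0.10) in BEC against full and Gpc3 (-0.66 to 0.0048) in BEC against early. The replicate block left the members called at the 3 steps at 4, 3 and 4. It gave 5 rather than 4 for full against early and 6 rather than 5 for BEC against intermediate, with Gpc3 gained in both (edgeR adjusted p 0.0194 and 0.0244), where the lowest pair had r of 0.096 and 0.0839. Igf2, Dlk1, Igf2bp1 and Lin28b had few or no reads, and whether deeper libraries would detect more was not tested.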
